A study of Mus musculus with 8 samples.

Results

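The comparison described here sets all 4 libraries of lung tumour nodules from mice given JQ1 against all 4 libraries from mice not given it, out of 8 libraries in the series. The libraries with JQ1 are 2 labelled JQ1 and 2 labelled anti-PD1-JQ1. The libraries without it are 2 labelled Vehicle and 2 labelled anti-PD1. Membership was taken from the treatment label alone, and the antibody against PD-1 entered the fit as a covariate. All 8 come from one genetically engineered lung tumour model with altered Trp53, on a mixed strain background, so the controls carry the same tumour alleles. The labels used here give no dose, treatment time, age or sex, do not say how the alleles are driven, and do not tell whether each library is a separate animal. P-values therefore measure only how these samples spread, and some of that spread may be technical.

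JQ1 is a small molecule that occupies the acetyl-lysine pockets of the BET bromodomain proteins, among them Brd2, Brd3 and the testis protein Brdt. These proteins bind acetylated histones and help the elongation kinase P-TEFb, made of Cdk9 and cyclin T, to release paused RNA polymerase II. In lung adenocarcinoma models, BET inhibitors are known for effects on Myc and Fosl1 and on the response to blockade of PD-1, an inhibitory receptor of T cells.

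RNA was captured with probes against coding regions before sequencing, and the deposited values are read counts per gene symbol. Totals were between 2719816 and 9789137 counts in the 4 libraries with JQ1 and between 10318833 and 15224108 in the 4 without, and the smallest was anti-PD1-JQ1 replicate 1. Ribosomal RNA took 40.3% ± 11.1 of the counts with JQ1 and 23.3% ± 1.02 without (SD, n = 4 each). The libraries did not overlap in this share, with 27.7% to 52.5% in the libraries with JQ1 and 21.8% to 24.2% in those without. An exact two-sided permutation test of the share gave p = 0.0286, the smallest that 4 against 4 allows. This share therefore moves with the treatment in every comparison below. Fits that remove these genes or add the share as a term were run, but neither can separate the share from JQ1. Counts of Xist and of Y-linked genes mark JQ1 replicate 1, anti-PD1-JQ1 replicate 1 and anti-PD1 replicate 2 as female and the other 5 libraries as male. The alveolar type 2 marker list, whose cells are known to give rise to such tumours, summed to between 7449 and 13210 CPM with JQ1 and between 9953 and 14220 CPM without, where CPM are counts scaled by library total and TMM factor to a common size. Trp53 was low in every library, at 3.52 ± 1.05 CPM with JQ1, against 2.23 ± 0.349 CPM without (SD, n = 4 each), and did not pass the test (edgeR adjusted p = 0.255).

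Of 12815 genes tested, 921 were called for JQ1, which is 7.19%, at an adjusted p under 0.05 from the quasi-likelihood test of edgeR (Benjamini-Hochberg adjustment over all tested genes). Of these, 524 were higher with JQ1 (4.09%) and 397 were lower (3.1%), so that 56.9% of the calls were higher. That split depends on the scaling, filter and tool. Of the calls, 76.9% were higher with JQ1 under upper-quartile factors (750 higher and 225 lower) and 71.2% with a mean count of at least 50, against 49.2% under RLE factors (435 and 450), 49.9% by DESeq2 (1131 and 1137), 42.6% without a filter on low counts (915 and 1233) and 38.2% by limma trend (372 and 602). The median log2 fold change of all tested genes was 0.06 here and -0.065 by limma trend. Separately from the test, 2602 genes (20.3%) were fully separated, meaning that every library of one side lay beyond every library of the other. Of these, 1417 were higher with JQ1 (11.1%) and 1185 lower (9.25%). Both conditions held for 846 genes (6.6%), 481 higher (3.75%) and 365 lower (2.85%). The calls depended on single libraries: 0 genes were called without anti-PD1 replicate 2 or without Vehicle replicate 2, with smallest adjusted p of 0.0506 and 0.0537. Leaving out another library gave 89 calls without anti-PD1 replicate 1, 96 without anti-PD1-JQ1 replicate 2, 116 without anti-PD1-JQ1 replicate 1, 156 without Vehicle replicate 1, 663 without JQ1 replicate 1 and 716 without JQ1 replicate 2. Those of the 921 genes that were still tested kept their direction in each of these 8 fits. With the ribosomal RNA share as a further term no gene was called, 799 had an unadjusted p under 0.05 against 4026 (31.4%) in the fit without it, and 913 of the 921 kept their direction. With the ribosomal RNA genes removed, 853 genes were called, 848 of them among the 921. Every call named below is therefore lost without anti-PD1 replicate 2, without Vehicle replicate 2 and with the ribosomal RNA term. A gene described as kept in 6 of 8 such fits lost its call only without those 2 libraries. Of 80 called genes checked in the 8 fits, 17 kept their call in 6 of them. A further 18 kept it in 2, and 20 in 1, among them Brd2, Nkx2-1, Etv5, Actb, Cdh1, Epcam, Mdm2 and Sqle. The calls of 5 genes, Supt5, Max, Jun, Pecam1 and Lck, were kept in 0 of these fits.

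**Figure D1:**
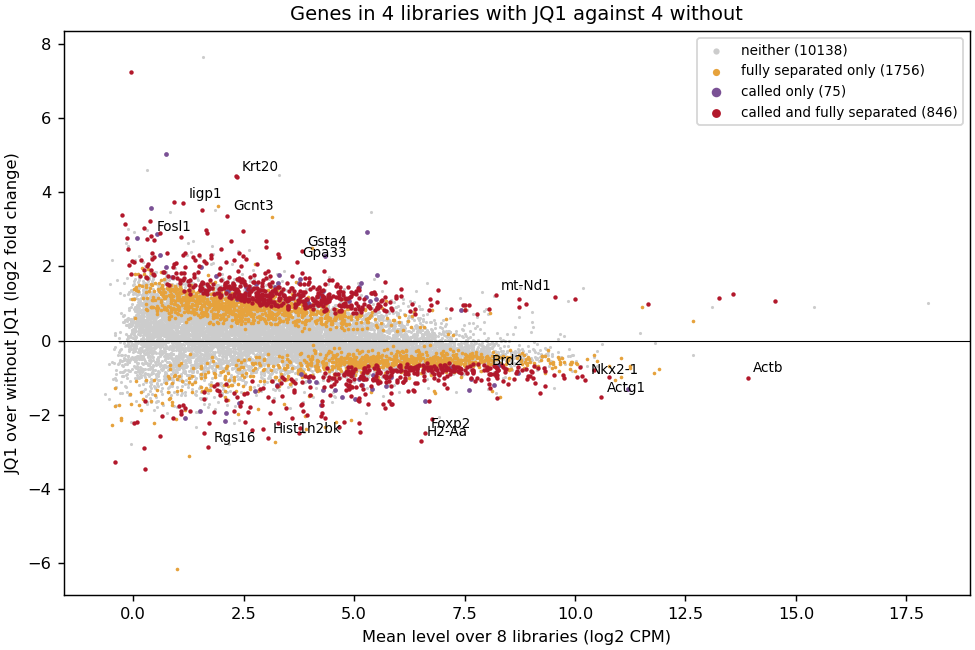
Each point is 1 of 12815 genes, with its mean level over the 8 libraries on the horizontal axis (log2 CPM) and the log2 fold change of JQ1 over without on the vertical axis. Red points are the 846 genes both called and fully separated, orange points are fully separated only, purple points are called only and grey points are neither.

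The histone genes of the replication-dependent clusters had more falls than any other of the 48 gene lists examined. These genes are expressed in S phase to package newly copied DNA, and their mRNAs end in a stem-loop instead of a polyA tail. Of 57 tested members of 70 listed, 32 were called lower with JQ1 and none higher, and 33 were fully separated, all lower. Their median log2 fold change was -1.51, against 0.06 over all tested genes. Their summed level was 1048 ± 432 CPM with JQ1 and 2643 ± 298 CPM without (SD, n = 4 each). By class, calls were made for 12 of 15 tested H2B genes, 9 of 11 H4 genes, 8 of 14 H2A genes and 3 of 11 H3 genes. The H4 gene Hist4h4, which was tested and not called, is left out of these class counts. None of the 5 tested linker histone H1 genes was called, and their median was 0.04. Of these, 1 was fully separated lower, Hist1h1d (log2 fold change -1.01, edgeR adjusted p = 0.0617). Core histone genes of a class are close copies of each other, so reads may be shared among them and the value of a single gene is uncertain.

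The start regions of 4 histone genes that fell are shown because their transcription is known to run through short promoter elements, the octamer of H2B genes bound by Oct-1 and the CCAAT box bound by NF-Y. Each run is the 150 bases before the gene's start, from RefSeq on GRCm38.p6, with the octamer (ATTTGCAT), CCAAT and TATAAA in capitals, searched on both strands, so that ATTGG is CCAAT on the other strand.
Hist1h2bk, chr13:22035671-22035820 (+): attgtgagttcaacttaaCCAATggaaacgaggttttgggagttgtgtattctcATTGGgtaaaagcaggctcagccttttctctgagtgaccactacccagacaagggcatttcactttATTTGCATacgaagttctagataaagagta
Hist1h2bm, chr13:21721894-21722043 (+): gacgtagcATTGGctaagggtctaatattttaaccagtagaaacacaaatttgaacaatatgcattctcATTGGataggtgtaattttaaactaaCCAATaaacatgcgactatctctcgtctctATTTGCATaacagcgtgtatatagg
Hist1h2bg, chr13:23571250-23571399 (+): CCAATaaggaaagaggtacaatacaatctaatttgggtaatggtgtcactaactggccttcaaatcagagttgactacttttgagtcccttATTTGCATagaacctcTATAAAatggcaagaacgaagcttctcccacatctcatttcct
Hist1h4h, chr13:23530894-23531043 (+): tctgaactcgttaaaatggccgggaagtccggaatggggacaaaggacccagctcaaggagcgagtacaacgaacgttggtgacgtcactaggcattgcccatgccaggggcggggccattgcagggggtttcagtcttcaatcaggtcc
The 3 H2B windows hold the octamer and the H4 window none of the 3 motifs. RefSeq windows were found for 49 histone genes. The octamer was in 5 of 12 H2B windows, 3 of 13 H2A windows, none of the 9 H3, 10 H4 and 5 H1 windows and 0.998% of 32851 promoters. CCAAT was in all H2A, H2B and H1 windows, 88.9% of H3 windows, 30% of H4 windows and 24.5% of all promoters, and TATAAA was in 2 of 12 H2B, 6 of 13 H2A, 4 of 9 H3, 4 of 10 H4 and 4 of 5 H1 windows and 7.57% of all promoters.

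Hist1h2bk, an H2B gene whose window leads the 4 above, had 6.65 and 4.30 CPM in JQ1 and 0.429 and 3.81 CPM in anti-PD1-JQ1 libraries, against 18.98 and 34.8 CPM in Vehicle and 27.4 and 14.8 CPM in anti-PD1 libraries. All 4 libraries with JQ1 were under all 4 without (log2 fold change -2.63 ± 0.44 (SE), edgeR adjusted p = 0.02). Hist1h2bm had 43.5 and 22.9 CPM in JQ1 and 6.44 and 6.45 CPM in anti-PD1-JQ1 libraries, against 86.4 and 112 CPM in Vehicle and 94.3 and 57.2 CPM in anti-PD1 libraries. Both anti-PD1-JQ1 libraries were far below both JQ1 libraries, and all 4 were below the libraries without JQ1 (log2 fold change -2.46 ± 0.43 (SE), edgeR adjusted p = 0.0255). Hist1h4h, an H4 gene, had 61.1 and 56.8 CPM in JQ1 and 42.9 and 45.2 CPM in anti-PD1-JQ1 libraries, against 140.2 and 123 CPM in Vehicle and 122 and 135 CPM in anti-PD1 libraries. The spread within each side was small and the sides did not overlap (log2 fold change -1.35 ± 0.18 (SE), edgeR adjusted p = 0.0117). Hist1h2bg fell to 32.8 ± 10.9 CPM with JQ1, against 99.1 ± 19.7 CPM without (SD, n = 4 each; log2 fold change -1.62 ± 0.24 (SE), edgeR adjusted p = 0.0166). Hist1h4c fell to 35.3 ± 5.48 CPM with JQ1, against 93.1 ± 7.55 CPM without (SD, n = 4 each; log2 fold change -1.41 ± 0.19 (SE), edgeR adjusted p = 0.0117). Hist1h2ai and Hist1h2bj, with log2 fold changes of -2.36 and -2.38, were also fully separated, with edgeR adjusted p = 0.0182 and 0.0268. The calls of Hist1h4h, Hist1h4c, Hist1h2bg and Hist1h2ai were kept in 6 of 8 leave-one-out fits, those of Hist1h2bk in 5, Hist1h2bm in 4 and Hist1h2bj in 3.

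Few other genes of the cell cycle were called. None of 24 tested replication genes, such as the Mcm helicase and Pol subunits, was called, and their median was -0.40. The median was -1.13 with the antibody and 0.26 without it. Of 18 mitosis genes 16 had a negative log2 fold change and the median was -0.88, and only Plk1 was called. Plk1, a kinase of mitotic entry, had 1.48 and 1.32 CPM in JQ1 and 0.429 and 0.331 CPM in anti-PD1-JQ1 libraries, against 4.16 and 4.81 CPM in Vehicle and 3.83 and 1.95 CPM in anti-PD1 libraries, and the sides did not overlap (log2 fold change -2.08 ± 0.44 (SE), edgeR adjusted p = 0.0297). Cdk6, a kinase of the passage from G1 to S phase, rose to 25.3 ± 6.71 CPM with JQ1, against 11.8 ± 0.789 CPM without (SD, n = 4 each; log2 fold change 1.10 ± 0.24 (SE), edgeR adjusted p = 0.0319). Its lowest value among libraries with JQ1 was 15.5 CPM, in anti-PD1-JQ1 replicate 1, and its highest value without JQ1 was 12.6 CPM.

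Most tested transcripts of the mitochondrial genome rose with JQ1. Of 12 tested, 10 were called higher and 11 were fully separated, with a median of 1.12. They encode subunits of the respiratory chain complexes and the ribosomal RNAs of the mitochondrion. mt-Nd1, a complex I subunit, had 345 and 411 CPM in JQ1 and 427 and 659.6 CPM in anti-PD1-JQ1 libraries, against 200.2 and 149 CPM in Vehicle and 212 and 221 CPM in anti-PD1 libraries. Its highest library was anti-PD1-JQ1 replicate 2, and the lowest library with JQ1 was above the highest without (log2 fold change 1.22 ± 0.20 (SE), edgeR adjusted p = 0.02). mt-Cytb, of complex III, had 590.1 and 532 CPM in JQ1 and 737 and 892 CPM in anti-PD1-JQ1 libraries, against 304 and 272 CPM in Vehicle and 389.8 and 408 CPM in anti-PD1 libraries, again without overlap (log2 fold change 0.997 ± 0.17 (SE), edgeR adjusted p = 0.02). mt-Rnr1, the small ribosomal RNA, had 19360 ± 4697 CPM with JQ1, against 7969 ± 855 CPM without (SD, n = 4 each; log2 fold change 1.26 ± 0.21 (SE), edgeR adjusted p = 0.02). Mitochondrial mRNA made up 0.544% ± 0.118 of counts outside ribosomal RNA with JQ1 and 0.238% ± 0.0337 without (SD, n = 4 each). The rise in these transcripts moved together with the ribosomal RNA share. That share itself counts the ribosomal RNAs of the mitochondrion, so for these the link holds in part by construction.

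Some nuclear genes of the respiratory chain rose too. Of 71 tested, 9 were called higher and none lower, 27 were fully separated higher and 4 lower, and the median log2 fold change was 0.79. Their summed CPM nevertheless overlapped, at 1668 to 2650 with JQ1 and 1836 to 2152 without. Cox6a1, a cytochrome c oxidase subunit, had 22.5 and 17.1 CPM in JQ1 and 25.3 and 50.3 CPM in anti-PD1-JQ1 libraries, against 9.23 and 8.98 CPM in Vehicle and 10.6 and 7.61 CPM in anti-PD1 libraries, with no overlap (log2 fold change 1.59 ± 0.30 (SE), edgeR adjusted p = 0.0256). Uqcr10, a small subunit of complex III, rose to 7.13 ± 2.90 CPM with JQ1, against 2.42 ± 0.411 CPM without (SD, n = 4 each; log2 fold change 1.51 ± 0.35 (SE), edgeR adjusted p = 0.0358). Atp5j2 and Atp5f1, subunits of ATP synthase, rose with log2 fold changes of 1.51 and 0.93, with edgeR adjusted p = 0.0349 and 0.0297. Of 78 tested cytosolic ribosomal protein genes 5 were called lower and none higher, a share of 6.41%, near the 7.19% over all tested genes. Their median was -0.30, 26 had positive values, and 15 were fully separated lower and 7 higher. The called genes included Rpsa, Rpl32, Rps4x and Rpl11, which were fully separated. Rpsa had 388 ± 113 CPM with JQ1, against 774 ± 137 CPM without (SD, n = 4 each; log2 fold change -1.01 ± 0.25 (SE), edgeR adjusted p = 0.0387), and Rps4x had 552 ± 135 CPM with JQ1, against 1028 ± 181 CPM without (SD, n = 4 each; log2 fold change -0.93 ± 0.22 (SE), edgeR adjusted p = 0.0364). Ribosomal protein genes have many pseudogene copies, so their counts may be split.

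Krt20, Dpcr1 and Gcnt3 had some of the largest rises among called and fully separated genes of mean log2 CPM of at least 1, and Gpa33 one of the smallest p. Gpa33, a surface glycoprotein of intestinal epithelium at chr1:166130238-166166510, + strand on GRCm38, had 19.7 and 34.7 CPM in JQ1 and 21.5 and 32.6 CPM in anti-PD1-JQ1 libraries, against 5.67 and 5.49 CPM in Vehicle and 7.73 and 6.41 CPM in anti-PD1 libraries. The 4 libraries with JQ1 were all above the 4 without (log2 fold change 2.12 ± 0.27 (SE), edgeR adjusted p = 0.0117). Gcnt3, a glycosyltransferase that branches mucin-type O-glycans, had 20.5 and 18.4 CPM in JQ1 and 13.3 and 6.79 CPM in anti-PD1-JQ1 libraries, against 3.48 and 1.03 CPM in Vehicle and 0.487 and 1.02 CPM in anti-PD1 libraries, and did not overlap (log2 fold change 3.37 ± 0.44 (SE), edgeR adjusted p = 0.0117). Krt20, an intermediate filament protein of intestinal and urothelial cells, had 65.5 and 6.50 CPM in JQ1 and 13.7 and 28.6 CPM in anti-PD1-JQ1 libraries, against 1.74 and 0.858 CPM in Vehicle and 0.209 and 2.51 CPM in anti-PD1 libraries. All 4 libraries with JQ1 were higher, but they ranged widely and JQ1 replicate 1 was by far the highest (log2 fold change 4.44 ± 0.92 (SE), edgeR adjusted p = 0.0381). Without that library its log2 fold change was 3.35, with edgeR adjusted p = 0.0421, and without anti-PD1 replicate 2 it was 5.24, with adjusted p = 0.0884. Dpcr1 also had its highest value in JQ1 replicate 1, at 60.1 CPM (log2 fold change 4.42 ± 0.75 (SE), edgeR adjusted p = 0.0268), and its log2 fold change without that library was 3.46. Of the gastrointestinal list, 11 of 21 members were tested, 2 were called higher and none lower, and the median was 0.83. The median was -0.05 with the antibody and 1.85 without it. The called members are Krt20 and Gpa33, and Gcnt3 and Dpcr1 are not on the list.

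Eps8l3, of the Eps8 family of actin regulators, lies at chr3:107877229-107892900, + strand and had 10.1 and 7.90 CPM in JQ1 and 12.02 and 7.45 CPM in anti-PD1-JQ1 libraries, against 0.832 and 0.744 CPM in Vehicle and 1.18 and 0.371 CPM in anti-PD1 libraries. Every library with JQ1 was above every library without, by a margin larger than the spread on either side (log2 fold change 3.53 ± 0.39 (SE), edgeR adjusted p = 0.0117). Gsta4, a glutathione transferase for products of lipid peroxidation, lies at chr9:78182774-78209349, + strand and had 50.4 and 21.9 CPM in JQ1 and 27.9 and 31.6 CPM in anti-PD1-JQ1 libraries, against 7.49 and 6.92 CPM in Vehicle and 5.78 and 4.64 CPM in anti-PD1 libraries, without overlap (log2 fold change 2.42 ± 0.28 (SE), edgeR adjusted p = 0.0117). Sdcbp2, a PDZ adaptor also called syntenin-2, had 10.2 and 5.88 CPM in JQ1 and 12.9 and 19.2 CPM in anti-PD1-JQ1 libraries, against 1.89 and 1.54 CPM in Vehicle and 2.09 and 1.49 CPM in anti-PD1 libraries and was fully separated (log2 fold change 2.69 ± 0.35 (SE), edgeR adjusted p = 0.0117). Dsg2, a desmosomal cadherin, rose to 39.04 ± 11.4 CPM with JQ1, against 10.4 ± 1.77 CPM without (SD, n = 4 each; log2 fold change 1.88 ± 0.24 (SE), edgeR adjusted p = 0.0117). Myo15b, an unconventional myosin gene, rose to 8.17 ± 3.62 CPM with JQ1, against 1.12 ± 0.195 CPM without (SD, n = 4 each; log2 fold change 2.89 ± 0.40 (SE), edgeR adjusted p = 0.0117). Slc35e3, of a transporter family for nucleotide sugars, rose to 15.3 ± 2.49 CPM with JQ1, against 4.64 ± 0.740 CPM without (SD, n = 4 each; log2 fold change 1.73 ± 0.24 (SE), edgeR adjusted p = 0.0117). The calls of Eps8l3, Gsta4, Gcnt3, Gpa33, Sdcbp2, Dsg2, Myo15b and Slc35e3 were all kept in 6 of 8 leave-one-out fits. Bcas1, Rab11fip4 and Aim2 also rose, by 2.98, 2.96 and 2.79 on the log2 scale, with edgeR adjusted p = 0.037, 0.0255 and 0.0228. Aim2 is a sensor of cytosolic DNA, and Rab11fip4 binds the small GTPase Rab11. Bcas1 dropped to a log2 fold change of 1.84 without JQ1 replicate 1, with adjusted p = 0.0647, and Rab11fip4 to 2.20 without anti-PD1-JQ1 replicate 2, with adjusted p = 0.0422. Because the filter on low counts was grouped by JQ1, scarce genes can pass it through the side where they are higher. Eps8l3, Aim2, Gcnt3 and Krt20 are such genes among the rises, and Plk1 and Rgs16 among the falls.

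**Figure D2:**
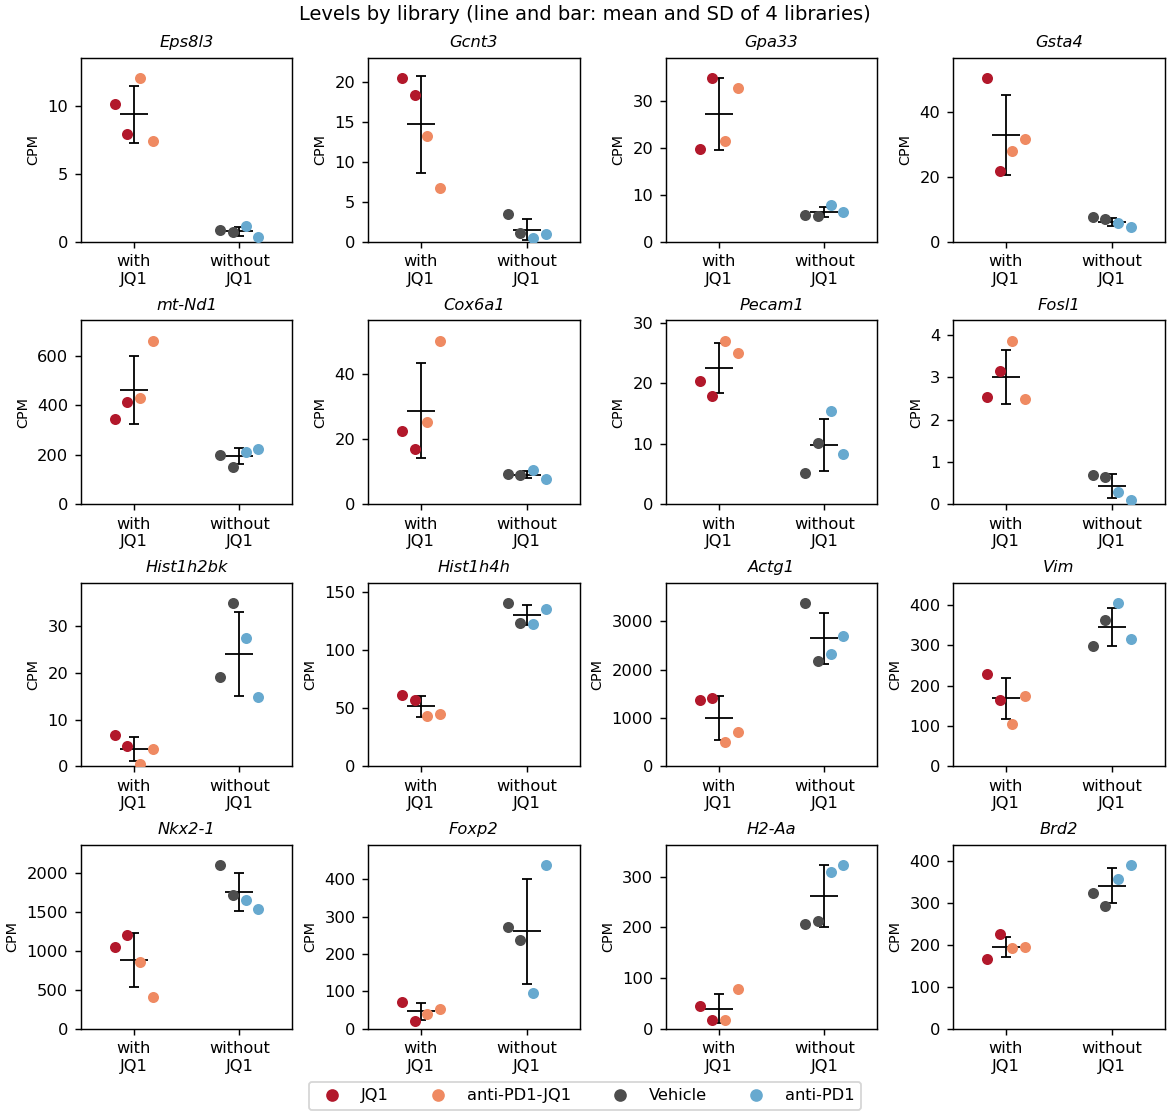
Levels of 16 genes in CPM (linear vertical axis from 0) in the 4 libraries with JQ1 and the 4 without, with a point per library coloured by treatment and the mean and SD of each side in black. In each panel the points with JQ1 lie wholly above or wholly below those without, with rises such as Eps8l3 and mt-Nd1 and falls such as Hist1h4h and H2-Aa.

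Several targets of Nrf2, the transcription factor of the oxidant response, rose with JQ1. Of 22 tested, 7 were called higher and none lower, and 8 were fully separated, all higher, with a median of 0.88. Their summed level was between 1115 and 1709 CPM with JQ1 and between 857 and 1000 CPM without. Gsta3, another glutathione transferase, had 15.4 and 11.9 CPM in JQ1 and 44.7 and 24.3 CPM in anti-PD1-JQ1 libraries, against 3.93 and 7.27 CPM in Vehicle and 3.41 and 3.62 CPM in anti-PD1 libraries. Both anti-PD1-JQ1 libraries were above both JQ1 libraries, which were above all without JQ1 (log2 fold change 2.25 ± 0.44 (SE), edgeR adjusted p = 0.0282). Txnrd1, thioredoxin reductase, had 44.6 and 59.5 CPM in JQ1 and 73.9 and 108 CPM in anti-PD1-JQ1 libraries, against 33.3 and 27.1 CPM in Vehicle and 24.1 and 31.6 CPM in anti-PD1 libraries, without overlap (log2 fold change 1.25 ± 0.26 (SE), edgeR adjusted p = 0.0285). Gsr, glutathione reductase, rose to 39.99 ± 14.3 CPM with JQ1, against 16.1 ± 4.46 CPM without (SD, n = 4 each; log2 fold change 1.32 ± 0.30 (SE), edgeR adjusted p = 0.0331). The other called members were Gsta4, given above, Srxn1, G6pdx and Gstm1. The list's median was 1.41 with the antibody and 0.31 without it.

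Some genes of interferon-induced GTPases rose with JQ1, while H2-Aa of the class II antigen presentation genes fell. The immunity-related and guanylate-binding GTPases restrict intracellular pathogens. Of 15 listed, 10 were tested. All 10 had positive log2 fold changes, 4 were called higher and 3 were fully separated, with a median of 1.49. Iigp1 had 4.43 and 1.49 CPM in JQ1 and 5.58 and 34.3 CPM in anti-PD1-JQ1 libraries, against 0.378 and 0.686 CPM in Vehicle and 0.348 and 1.11 CPM in anti-PD1 libraries. All libraries with JQ1 were above those without, and anti-PD1-JQ1 replicate 2 was far above the rest (log2 fold change 3.70 ± 0.80 (SE), edgeR adjusted p = 0.0365). Without that library its log2 fold change was 2.63 and the edgeR adjusted p = 0.0583. Igtp and Gbp4 rose by 2.24 and 1.86 on the log2 scale, with edgeR adjusted p = 0.0431 and 0.0476, and neither was above 1.11 CPM in a library without JQ1. The log2 fold change of Igtp was 2.90 without Vehicle replicate 2 and 1.64 without anti-PD1-JQ1 replicate 2, with adjusted p = 0.0631 and 0.132. Of 27 other interferon-stimulated genes listed, 11 were tested. All of these had positive values, with a median of 0.88, but none was called. The filter on low counts was grouped by JQ1, so scarce members of both lists can enter through the side where they are high. The shared sign of the tested members is therefore partly open to that choice. Members of these GTPase families, like the glutathione transferases above, are close copies among which reads may be shared.

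H2-Aa, the class II alpha chain that presents peptides to CD4 T cells, had 45.5 and 16.9 CPM in JQ1 and 18.03 and 77.9 CPM in anti-PD1-JQ1 libraries, against 207 and 213 CPM in Vehicle and 308 and 322 CPM in anti-PD1 libraries. Every library with JQ1 was well below every library without (log2 fold change -2.72 ± 0.44 (SE), edgeR adjusted p = 0.0255). It was the only called gene of 8 tested in the class II list, whose median was -1.22, with 3 members fully separated lower. Ciita, the master regulator of class II transcription, was not called (log2 fold change -0.87 ± 0.47 (SE), edgeR adjusted p = 0.225), and its values overlapped, since JQ1 replicate 1 had 10.3 CPM, the highest of the 8. The summed class II level was 98.6 to 538 CPM with JQ1 and 719 to 1217 CPM without. H2-Aa lies at chr17:34282744-34287823, - strand, in the H2 complex. Between the starts of H2-K1 and H2-T-ps, from 33996017 to 36109234 on chromosome 17, 90 genes were tested, 5 were called lower and 1 higher, and the median was -0.24. That is 6.67% called, against 7.19% over all tested genes, and 13 were fully separated lower and 6 higher, or 21.1%, against 20.3%. The end of the span was set at a called gene. The 5 were H2-Aa, Brd2, Cyp21a1, Ddx39b and H2-T-ps. Cyp21a1, a steroid hydroxylase of the adrenal cortex, and H2-T-ps, a class I pseudogene, had log2 fold changes of -2.48 and -2.49, with edgeR adjusted p = 0.0384 and 0.0125. Without anti-PD1-JQ1 replicate 2 the value of Cyp21a1 was -3.46. The labels name the strain as a mixed background, haplotypes of this complex were not measured here, and a part of strain in these values was not tested. Cd274, which encodes the PD-1 ligand PD-L1, had 1.77 ± 0.906 CPM with JQ1, against 1.53 ± 0.317 CPM without (SD, n = 4 each) and was not called (log2 fold change 0.10 ± 0.46 (SE), edgeR adjusted p = 0.892).

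Transcription factors of the lung epithelial lineage were lower with JQ1 where they were called. Of 20 tested, 4 were called lower and none higher, 6 were fully separated, all lower, and the median was -0.46. Nkx2-1, which specifies and maintains lung epithelium, had 1050 and 1212 CPM in JQ1 and 859 and 403 CPM in anti-PD1-JQ1 libraries, against 2103 and 1728 CPM in Vehicle and 1654 and 1543 CPM in anti-PD1 libraries. The libraries did not overlap, and anti-PD1-JQ1 replicate 2 was the lowest (log2 fold change -1.05 ± 0.25 (SE), edgeR adjusted p = 0.0381). Foxp2, a forkhead factor of lung epithelium, had 71.96 and 20.1 CPM in JQ1 and 40.4 and 52.3 CPM in anti-PD1-JQ1 libraries, against 271 and 238 CPM in Vehicle and 96.1 and 437 CPM in anti-PD1 libraries, and the lowest library without JQ1 was anti-PD1 replicate 1 (log2 fold change -2.49 ± 0.52 (SE), edgeR adjusted p = 0.0364). Etv5, an Ets factor of alveolar type 2 cells induced by ERK signalling, fell to 190.2 ± 97.03 CPM with JQ1, against 439 ± 84.9 CPM without (SD, n = 4 each; log2 fold change -1.29 ± 0.32 (SE), edgeR adjusted p = 0.0415). Id2, an inhibitor of basic helix-loop-helix factors, fell too (log2 fold change -1.34 ± 0.25 (SE), edgeR adjusted p = 0.0255), but its libraries overlapped, as JQ1 replicates 1 and 2 had 240 and 267 CPM and the anti-PD1 libraries 214 and 232 CPM. Sox2, an airway factor, had 2.32 and 0 CPM in JQ1 and 40.4 and 19.4 CPM in anti-PD1-JQ1 libraries, against 0 and 0.172 CPM in Vehicle and 4.39 and 0.743 CPM in anti-PD1 libraries. Only the anti-PD1-JQ1 libraries were high, and Sox2 was not called (log2 fold change 3.47 ± 0.98 (SE), edgeR adjusted p = 0.0658).

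Marker genes of differentiated lung cells split. Of 19 alveolar type 2 markers, Napsa, an aspartic protease that processes surfactant protein, rose to 159.8 ± 38.2 CPM with JQ1, against 73.1 ± 18.8 CPM without (SD, n = 4 each; log2 fold change 1.12 ± 0.23 (SE), edgeR adjusted p = 0.0286), while Etv5 and Nkx2-1 were the 2 called lower, and the median was -0.11. Among 15 alveolar type 1 markers 2 were called higher, Emp2 and Gprc5a, and 2 lower, Vegfa and Cldn18. Vegfa, an endothelial growth factor, had 313 and 360.1 CPM in JQ1 and 264 and 193 CPM in anti-PD1-JQ1 libraries, against 474 and 677 CPM in Vehicle and 461 and 650.2 CPM in anti-PD1 libraries, without overlap (log2 fold change -1.03 ± 0.22 (SE), edgeR adjusted p = 0.0312). Scgb1a1, the secretoglobin of club cells, had 78.4 and 22.6 CPM in JQ1 and 311 and 245 CPM in anti-PD1-JQ1 libraries, against 5.29 and 3.49 CPM in Vehicle and 87.03 and 20.98 CPM in anti-PD1 libraries. It was called higher (log2 fold change 2.92 ± 0.57 (SE), edgeR adjusted p = 0.0335), yet anti-PD1 replicate 1 was above both JQ1 libraries, so the sides overlapped. Without anti-PD1 replicate 1 its log2 fold change was 3.60. Of 22 airway markers 11 were tested, 2 were called higher, and none was fully separated.

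Several cytoskeletal and matrix genes fell. All 14 tested cytoplasmic actin and tubulin genes had negative log2 fold changes, 3 were called lower and 5 were fully separated lower, with a median of -0.93. Actg1, gamma actin, had 1371 and 1417 CPM in JQ1 and 508 and 703 CPM in anti-PD1-JQ1 libraries, against 3373 and 2177 CPM in Vehicle and 2328 and 2702 CPM in anti-PD1 libraries. The anti-PD1-JQ1 libraries were lowest and no library with JQ1 reached those without (log2 fold change -1.52 ± 0.27 (SE), edgeR adjusted p = 0.0219). Actb, beta actin, often taken as a constant reference, had 12280 and 14100 CPM in JQ1 and 7273 and 10930 CPM in anti-PD1-JQ1 libraries, against 23620 and 23260 CPM in Vehicle and 18210 and 23040 CPM in anti-PD1 libraries, without overlap (log2 fold change -1.005 ± 0.23 (SE), edgeR adjusted p = 0.033). Tubb2a, a beta tubulin, fell by 1.03 on the log2 scale with edgeR adjusted p = 0.0305, but JQ1 replicate 2 was above both anti-PD1 libraries. Actin and tubulin genes have close copies among which reads may be shared.

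Of the list for epithelial-mesenchymal transition, the 2 called mesenchymal genes fell and the 2 called epithelial genes rose. Vim, the mesenchymal intermediate filament, had 230.2 and 165 CPM in JQ1 and 105 and 173 CPM in anti-PD1-JQ1 libraries, against 298 and 364 CPM in Vehicle and 405 and 316 CPM in anti-PD1 libraries, without overlap (log2 fold change -1.05 ± 0.23 (SE), edgeR adjusted p = 0.0319). Tgfbi, a matrix protein induced by TGF-beta, fell to 20.3 ± 5.52 CPM with JQ1, against 62.1 ± 15.8 CPM without (SD, n = 4 each; log2 fold change -1.63 ± 0.27 (SE), edgeR adjusted p = 0.02). Cdh1, E-cadherin of epithelial junctions, had 225 and 156 CPM in JQ1 and 195 and 216 CPM in anti-PD1-JQ1 libraries, against 117 and 116 CPM in Vehicle and 116 and 88.3 CPM in anti-PD1 libraries, and was higher in all 4 libraries with JQ1 (log2 fold change 0.86 ± 0.19 (SE), edgeR adjusted p = 0.0331). Epcam, an epithelial adhesion molecule, rose to 39.6 ± 10.1 CPM with JQ1, against 19.8 ± 3.99 CPM without (SD, n = 4 each; log2 fold change 1.001 ± 0.25 (SE), edgeR adjusted p = 0.0387). The median of the 18 tested members was -0.05, and 0.03 under upper-quartile factors, and the list holds genes of both states. The uncalled members of each state went both ways. Among mesenchymal genes, Snai1 and Cdh2 had positive values, and Snai2, Zeb1, Zeb2, Fn1 and Hmga2 negative ones. Among epithelial genes, Krt18, Cldn3, Cldn4 and Cldn7 had positive values, Krt8 and Ocln negative ones, and Krt19 was at 0. Of 27 collagen genes 3 were called lower, Col1a1, Col4a5 and Col12a1, and Col4a1 was called higher. That is 14.8% called, against 7.19% over all tested genes. Col1a1, the main fibrillar collagen chain, had 385 ± 154 CPM with JQ1, against 976 ± 231 CPM without (SD, n = 4 each; log2 fold change -1.43 ± 0.27 (SE), edgeR adjusted p = 0.0255). Col4a5, a basement membrane chain on the X chromosome, had 22.98 ± 4.50 CPM with JQ1, against 62.8 ± 9.88 CPM without (SD, n = 4 each; log2 fold change -1.45 ± 0.20 (SE), edgeR adjusted p = 0.0125). Acta2, the actin of smooth muscle and activated fibroblasts, fell to 65.04 ± 38.4 CPM with JQ1, against 194 ± 44.1 CPM without (SD, n = 4 each; log2 fold change -1.64 ± 0.30 (SE), edgeR adjusted p = 0.0255), and Myl9 and Des, a myosin light chain and the muscle intermediate filament desmin, fell by 1.13 and 1.21 on the log2 scale, with edgeR adjusted p = 0.0442 and 0.0456. Des overlapped, with 40.3 CPM in JQ1 replicate 1 and 35.2 CPM in Vehicle replicate 1. These 3 were the called genes among 14 tested of the smooth muscle and pericyte list, of which 8 had positive values, Mcam was fully separated higher and the median was 0.12. The fibroblast list had 1 of 16 called in each direction, Pdgfra higher and Col1a1 lower, and a median of -0.27. In bulk tissue, fewer cells of a type and less RNA per cell cannot be told apart.

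Endothelial markers were higher with JQ1 where they were called. Of 25 tested, 6 were called higher and none lower, and 9 were fully separated, all higher, with a median of 0.46. The summed level of the list overlapped, at 438 to 580 CPM with JQ1 and 248.7 to 449 CPM without. Pecam1, an adhesion molecule of endothelial junctions, had 20.4 and 17.9 CPM in JQ1 and 27.1 and 24.99 CPM in anti-PD1-JQ1 libraries, against 5.07 and 10.2 CPM in Vehicle and 15.5 and 8.35 CPM in anti-PD1 libraries. The lowest library with JQ1, JQ1 replicate 2, was just above the highest without, anti-PD1 replicate 1 (log2 fold change 1.22 ± 0.29 (SE), edgeR adjusted p = 0.0364). Flt1, a receptor for Vegfa, had 37.7 and 51.6 CPM in JQ1 and 48.5 and 48.8 CPM in anti-PD1-JQ1 libraries, against 22.6 and 20.5 CPM in Vehicle and 26.5 and 28.8 CPM in anti-PD1 libraries, without overlap (log2 fold change 0.94 ± 0.20 (SE), edgeR adjusted p = 0.0299). Egfl7 and Cldn5, a secreted endothelial factor and a tight junction protein, rose by 1.13 and 1.71 on the log2 scale, with edgeR adjusted p = 0.0319 and 0.0371. The call of Pecam1 was lost in each of the 8 fits that left out a library. Leukocyte markers were too scarce for most to be tested, with 3 of 22 genes of T and NK cells and 3 of 16 of neutrophils past the filter on low counts. Lck, a kinase of T cell receptor signalling, was called lower at 0.556 ± 0.186 CPM with JQ1, against 1.81 ± 0.329 CPM without (SD, n = 4 each; log2 fold change -1.63), and all 3 tested genes of T and NK cells had negative values. The summed level of that list overlapped, at 5.58 to 23 CPM with JQ1 and 16.1 to 23.7 CPM without. Its median log2 fold change was -1.55 with the antibody and -0.07 without it. S100a8, a calcium-binding protein of neutrophils, was called higher at 1.97 ± 0.520 CPM with JQ1, against 0.162 ± 0.121 CPM without (SD, n = 4 each; log2 fold change 3.38 ± 0.63 (SE), edgeR adjusted p = 0.0255). The filter on low counts was grouped by JQ1, so genes this scarce can pass it only through the side where they are higher. Mmp8 and Lcn2, also tested for neutrophils, were not called, with log2 fold changes of 0.755 and 0.031. The neutrophil list summed to 14.84 to 133.9 CPM with JQ1 and 32.55 to 96.58 CPM without. The call of Lck was lost in each of the 8 leave-one-out fits, and that of S100a8 was kept in 2. Of 15 alveolar macrophage markers Fabp4 was called higher, and of 15 tumour macrophage markers 1 was called lower. Each is 6.67% of its tested list, near the 7.19% over all tested genes.

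Among the drug's direct targets and their partners, Brd2 and Supt5 were called lower and Aff1 higher. They were 3 of 19 tested genes of BET proteins and the P-TEFb machinery, or 15.8%, against 7.19% over all tested genes, and the list's median was -0.26. Brd2 had 166 and 227 CPM in JQ1 and 193 and 195 CPM in anti-PD1-JQ1 libraries, against 324 and 294 CPM in Vehicle and 357 and 390 CPM in anti-PD1 libraries, without overlap (log2 fold change -0.80 ± 0.18 (SE), edgeR adjusted p = 0.0331). Brd3 was fully separated but not called (log2 fold change 0.34 ± 0.20 (SE), edgeR adjusted p = 0.261), with 29.6 ± 5.08 CPM with JQ1, against 23.3 ± 1.66 CPM without (SD, n = 4 each). Supt5, a subunit of the DSIF pausing factor, fell (log2 fold change -0.65 ± 0.18 (SE), edgeR adjusted p = 0.0479), and Aff1, a scaffold of the super elongation complex, rose (log2 fold change 1.18 ± 0.29 (SE), edgeR adjusted p = 0.0405). Hexim1, the inhibitor of P-TEFb, had 29.97 and 19.2 CPM in JQ1 and 26.6 and 9.27 CPM in anti-PD1-JQ1 libraries, against 45.6 and 29.4 CPM in Vehicle and 47.2 and 42.6 CPM in anti-PD1 libraries. JQ1 replicate 1 lay above Vehicle replicate 2, and the gene was not called (log2 fold change -0.98 ± 0.33 (SE), edgeR adjusted p = 0.0851). Cdk9 was not called (log2 fold change 0.54 ± 0.25 (SE), edgeR adjusted p = 0.167). Serpini1, a serine protease inhibitor used as a marker of BET inhibition in some cells, was below the filter on low counts, with 17 counts in the 4 libraries with JQ1 and 2 in the 4 without. At the libraries' depths that is a ratio of 16.2, with a 95% counting interval of 3.85 to 145, which covers counting error only.

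Myc itself did not pass the test. It had 25.9 and 23.9 CPM in JQ1 and 16.3 and 7.78 CPM in anti-PD1-JQ1 libraries, against 19.6 and 16.6 CPM in Vehicle and 16.99 and 19.03 CPM in anti-PD1 libraries, and the sides overlapped (log2 fold change -0.06 ± 0.30 (SE), edgeR adjusted p = 0.913). The anti-PD1-JQ1 libraries were below the anti-PD1 ones, and the JQ1 libraries were above the Vehicle ones. Mycn had 19.1 and 40.6 CPM in JQ1 and 5.15 and 0.662 CPM in anti-PD1-JQ1 libraries, against 45.1 and 61.9 CPM in Vehicle and 73.03 and 41.6 CPM in anti-PD1 libraries. It was fully separated lower but not called (log2 fold change -2.32 ± 0.88 (SE), edgeR adjusted p = 0.126). Mycl was not called either (log2 fold change 1.55 ± 0.54 (SE), edgeR adjusted p = 0.0837). Max, the partner of Myc proteins, fell to 178 ± 10.8 CPM with JQ1, against 278 ± 17.1 CPM without (SD, n = 4 each; log2 fold change -0.64 ± 0.17 (SE), edgeR adjusted p = 0.0426), and Mxd1, which competes with Myc for Max, rose to 28.6 ± 10.9 CPM with JQ1, against 11.9 ± 2.18 CPM without (SD, n = 4 each; log2 fold change 1.18 ± 0.26 (SE), edgeR adjusted p = 0.0319). Of 27 tested genes of ribosome biogenesis, a process driven by Myc, none was called or fully separated, and their median was -0.11.

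Fosl1, an AP-1 subunit downstream of ERK, was low in all libraries and rose. It had 2.53 and 3.16 CPM in JQ1 and 3.87 and 2.48 CPM in anti-PD1-JQ1 libraries, against 0.681 and 0.629 CPM in Vehicle and 0.279 and 0.0928 CPM in anti-PD1 libraries. The lowest library with JQ1 had more than the highest without (log2 fold change 2.81 ± 0.52 (SE), edgeR adjusted p = 0.0255). With the filter on low counts grouped by JQ1, a gene this scarce can pass it only through the side where it is higher. Jun and Egr1, immediate early transcription factors, fell by 0.91 and 1.19 on the log2 scale, with edgeR adjusted p = 0.0358 and 0.0301. Jun had 17.3 and 18.2 CPM in JQ1 and 17.2 and 26.5 CPM in anti-PD1-JQ1 libraries, against 33.8 and 34.8 CPM in Vehicle and 35.4 and 45.02 CPM in anti-PD1 libraries, without overlap. These 3 were the called genes among 22 of the AP-1 and immediate early list, or 13.6%, against 7.19% over all tested genes. Of 14 tested genes of NF-kB and its feedback none was called, and their median was 0.23. Of 21 targets of p53, Mdm2 and Pmaip1 were called higher and none lower, with a median of 0.58. That share of 9.52% called is near the 7.19% over all tested genes. Mdm2, which degrades p53, rose to 20.2 ± 3.13 CPM with JQ1, against 10.3 ± 1.497 CPM without (SD, n = 4 each; log2 fold change 0.96 ± 0.23 (SE), edgeR adjusted p = 0.0364). Pmaip1, a BH3-only death factor, overlapped (log2 fold change 2.31 ± 0.59 (SE), edgeR adjusted p = 0.0431), and without anti-PD1-JQ1 replicate 2, its highest library, the log2 fold change was 1.63. Bcl2l11, the BH3-only protein Bim, was fully separated and not called (log2 fold change 1.37 ± 0.38 (SE), edgeR adjusted p = 0.0505). Cdkn1a, Bcl2, Mcl1, Ccnd1 and Cdkn1c were not called, with edgeR adjusted p = 0.178, 0.724, 0.256, 0.469 and 0.887.

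Among metabolic and other genes, Msmo1 and Sqle, enzymes of cholesterol synthesis, were called higher out of 26 tested genes of sterol and fatty acid synthesis, whose median was 0.69. That share of 7.69% is near the 7.19% over all tested genes. Msmo1 had 8.02 and 5.53 CPM in JQ1 and 11.2 and 12.1 CPM in anti-PD1-JQ1 libraries, against 3.33 and 3.66 CPM in Vehicle and 2.79 and 1.49 CPM in anti-PD1 libraries, without overlap (log2 fold change 1.66 ± 0.38 (SE), edgeR adjusted p = 0.0339). Sqle had its highest value, 24.8 CPM, in anti-PD1-JQ1 replicate 2 (log2 fold change 1.57 ± 0.39 (SE), edgeR adjusted p = 0.0404), and leaving out single libraries moved its log2 fold change between 1.04 and 1.80. Ctsb, a lysosomal protease, rose to 105 ± 28.7 CPM with JQ1, against 45.3 ± 12.9 CPM without (SD, n = 4 each; log2 fold change 1.19 ± 0.25 (SE), edgeR adjusted p = 0.0306). Of the remaining falls chosen by size or by p, Rgs16, which ends signalling of G proteins, had 2.95 and 1.58 CPM in JQ1 and 0.859 and 0.166 CPM in anti-PD1-JQ1 libraries, against 8.85 and 15.3 CPM in Vehicle and 7.80 and 5.11 CPM in anti-PD1 libraries, without overlap (log2 fold change -2.88 ± 0.46 (SE), edgeR adjusted p = 0.02). Gphn, the scaffold protein gephyrin, fell to 51.8 ± 12.3 CPM with JQ1, against 129 ± 8.23 CPM without (SD, n = 4 each; log2 fold change -1.32 ± 0.21 (SE), edgeR adjusted p = 0.0197). Slc26a4, an anion exchanger, fell (log2 fold change -2.40 ± 0.60 (SE), edgeR adjusted p = 0.0461), and without JQ1 replicate 1, the highest with the drug, its value was -3.34. Of 11 tested genes of neural cells 3 were called lower, with Stmn2 at -1.90. None of 20 clock genes, 19 glucocorticoid targets and 25 genes of the unfolded protein response was called.

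The ribosomal RNA share was 35% and 27.7% in the JQ1 libraries and 45.95% and 52.5% in the anti-PD1-JQ1 libraries. It was 21.8% to 24.2% in those without JQ1. A term for it therefore rests mostly on the contrast of anti-PD1-JQ1 with JQ1 libraries. Such a term cannot be told apart from JQ1 or from an effect of the combination, so the values here are descriptive only. With that share as a term, where no gene is called, the median of the Nrf2 targets was 0.02 (0.88 without the term), that of the nuclear respiratory chain 0.12 (0.79 without it) and that of the interferon-induced GTPases 0.21 (1.49 without it). The histone list had -0.997 (-1.51 without the term), class II -1.68 (-1.22 without it) and the endothelial list 0.69 (0.46 without it). The log2 fold change of Eps8l3 was 3.59 with the term, that of Gsta4 1.75, that of mt-Nd1 0.95 and that of Hist1h4h -1.14. It was 0.30 for Iigp1, 0.425 for Igtp, 0.07 for Gsr, 0.003 for Sqle, -0.25 for Nkx2-1 and -0.997 for Hist1h2ai, each under 50% of its size without the term. Of 80 called genes examined in this way, 23 were under 50% of their size without the term, 57 were at or over it and none changed sign. Medians changed sign for 17 of the 48 lists, among them DNA replication at 0.38, sterol and fatty acid synthesis at -0.36, fibroblasts at 0.28, neural genes at 0.15, ribosome biogenesis at 0.24 and NF-kB at -0.12.

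**Figure D3:**
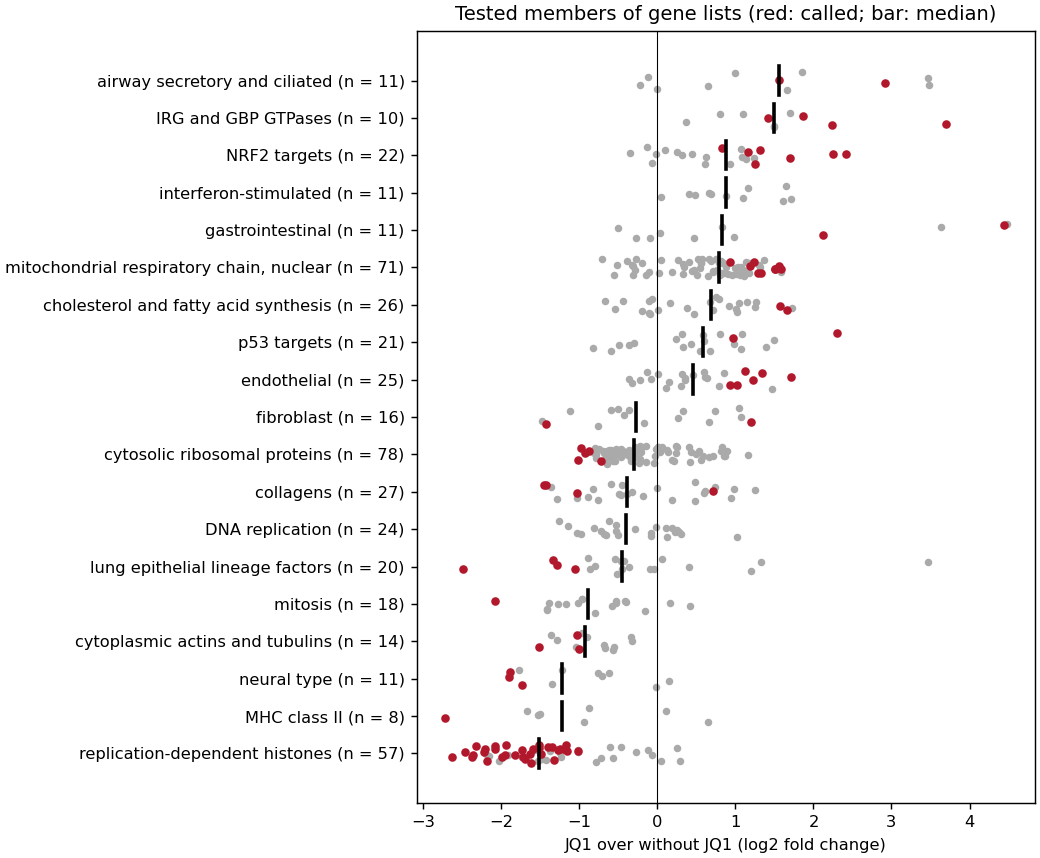
Log2 fold changes of JQ1 over without for the tested members of 19 gene lists (n in brackets), with called genes in red, other genes in grey and the median of each list as a black bar. Histones have a median of -1.51 with 32 red points, all below 0, and Nrf2 targets a median of 0.88 with 7 red points, all above 0.

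The JQ1 difference was compared between mice with the antibody (anti-PD1-JQ1 over anti-PD1) and mice without it (JQ1 over Vehicle), which share no library. Across 12815 genes the 2 log2 fold changes had a Pearson r of 0.483 and a Spearman rho of 0.559, and across 6987 genes whose mean was at least 3 (log2 CPM) these were 0.609 and 0.6. Genes are not independent replicates, and no p is given. Of the 846 genes called and fully separated, which by their choice go the same way in both, 680 had the larger change with the antibody. Their median absolute log2 fold change was 1.37 with the antibody and 0.92 without. In a fit with a mean for each treatment, 613 genes were called with the antibody (4.78%) and 0 without it (0%). That contrast does not show that the effects differ, and the test of the difference itself, the interaction of JQ1 and antibody, called 0 genes by edgeR, with a smallest adjusted p of 0.743. At an unadjusted p under 0.05 there were 825 genes (6.44%), DESeq2 called 22 genes and limma voom 0.

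The genes with the smallest interaction p included Prdx6, Trim6, Per3 and Antxr1, and none passed the adjustment. Prdx6, a peroxiredoxin, had 109 and 87.5 CPM in JQ1 and 508 and 769 CPM in anti-PD1-JQ1 libraries, against 101 and 104 CPM in Vehicle and 105 and 149.8 CPM in anti-PD1 libraries. Only the anti-PD1-JQ1 libraries stood above the rest. Per3, a clock gene, had 16.2 and 9.31 CPM in JQ1 and 81.2 and 94.3 CPM in anti-PD1-JQ1 libraries, against 14.4 and 15.9 CPM in Vehicle and 19.6 and 20.98 CPM in anti-PD1 libraries, in the same pattern. Antxr1, an anthrax toxin receptor, had 50.1 and 55.7 CPM in JQ1 and 13.7 and 10.6 CPM in anti-PD1-JQ1 libraries, against 49.3 and 49.7 CPM in Vehicle and 41.98 and 80.8 CPM in anti-PD1 libraries, with only the anti-PD1-JQ1 libraries low. Without both anti-PD1-JQ1 libraries, 1 gene was called for JQ1 in the remaining 6.

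**Figure D4:**
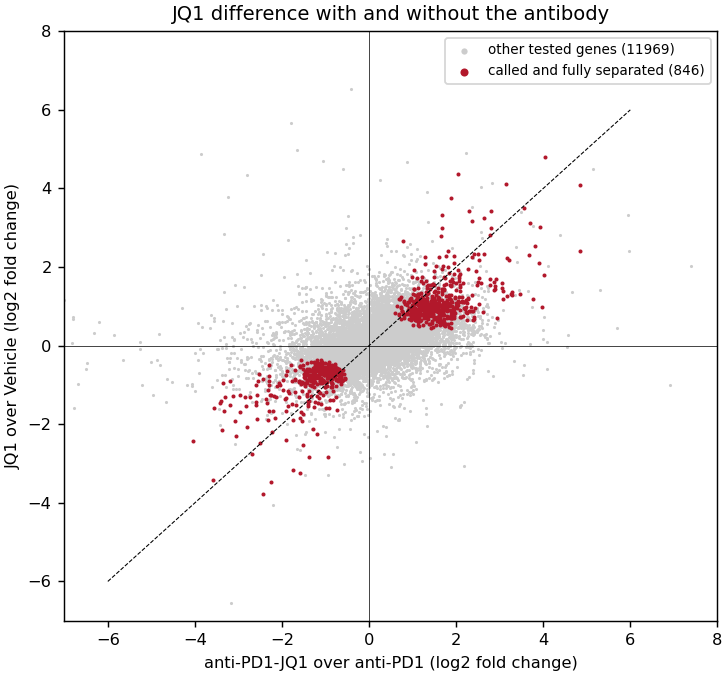
Each point is a gene, with the log2 fold change of anti-PD1-JQ1 over anti-PD1 on the horizontal axis and that of JQ1 over Vehicle on the vertical axis, and the 846 genes called and fully separated in red. Red points lie in the 2 quadrants of equal sign because of how they were chosen, and 680 of them have the larger change on the horizontal axis; 11 genes fall outside the plotted range.

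Calls were spread unevenly over the chromosomes. On chromosome 5, 64 of 842 tested genes were called higher and 8 lower, and on chromosome 2, 66 of 993 were called higher and 16 lower. On chromosome 4, 8 of 753 were called higher and 55 lower, on chromosome 9, 11 of 675 higher and 43 lower, and on the X chromosome 7 of 380 higher and 25 lower. Chromosome 13 had 10 higher and 40 lower of 483, and holds the large histone cluster. The median level of well-expressed genes of chromosome 4, against the mean of the libraries without JQ1, was -0.31 and -0.21 (log2) in the JQ1 libraries, -0.22 and 0.10 in the anti-PD1-JQ1 libraries, 0.07 and -0.02 in the Vehicle libraries and 0.00 and -0.06 in the anti-PD1 libraries. For chromosome 5 it was 0.01 and 0.30 in JQ1, 0.13 and 0.50 in anti-PD1-JQ1, -0.04 and 0.10 in Vehicle and 0.03 and -0.06 in anti-PD1 libraries. Copy number of the tumours was not measured here, and its part in these values was not tested. When each library was scaled also by the median of a gene's own chromosome, an alternative added after seeing the data, 1438 genes were called, 830 of them among the 921, and 29 histone genes were called lower. Cox6a1, Atp5j2, Cdk6, Aff1, Flt1 and Gbp4, called higher above, lie on chromosome 5, as does Actb, called lower, and Jun and Lck, called lower, lie on chromosome 4.

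**Figure D5:**
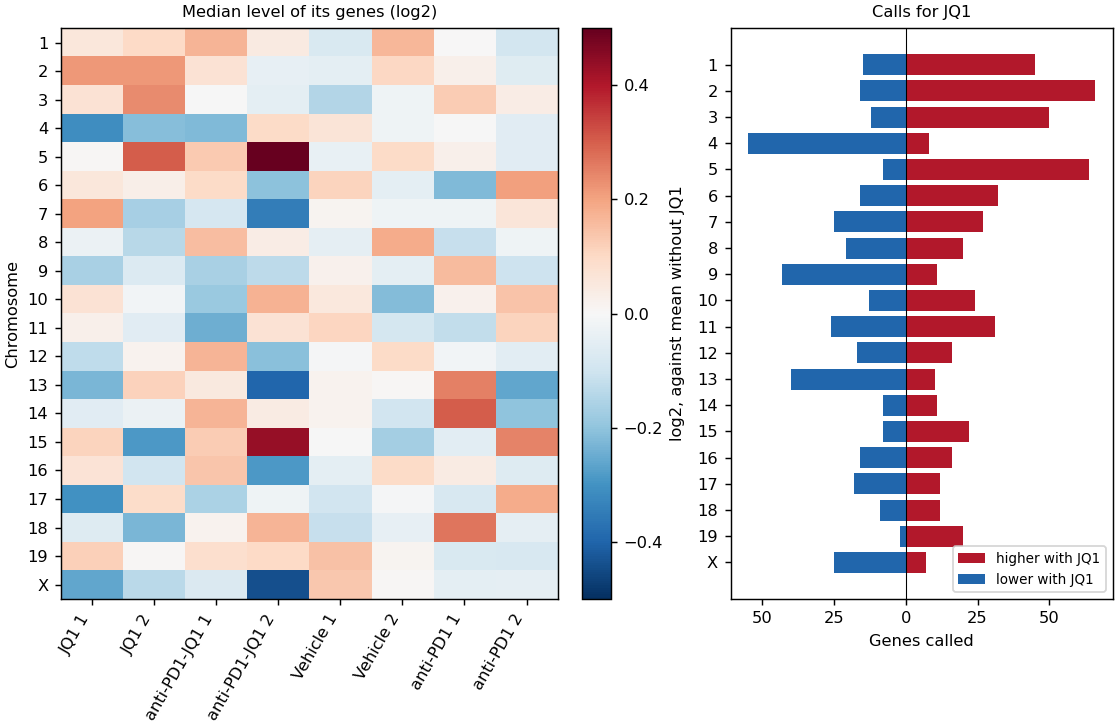
Left, the median level of genes averaging at least 3 (log2 CPM) on each chromosome and in each library, as log2 against the mean of the 4 libraries without JQ1. Right, the number of genes called higher with JQ1 (red, to the right) and lower (blue, to the left) on each chromosome; chromosome 5 has 64 higher and 8 lower and chromosome 4 has 8 higher and 55 lower.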

How the data were processed

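RNA was isolated from frozen lung tumour nodules and made into libraries with a probe-capture kit for coding regions, per the labels' protocols. The tools bcl2fastq, STAR, featureCounts and DESeq2 and the builds mm10 and GRCm38 are named in the submitters' processing notes, and the sources used here do not give their versions, the gene annotation or the use of strand. Without strand, a gene and an antisense or overlapping partner cannot be told apart. The authors' raw table has unnormalized read counts for each gene symbol, as deposited, with 1 column per library and 0 unused columns. The deposited normalized table holds a signal, each count divided by 1 factor per library. Multiplied back, 99.99% to 100% of its values came out whole within 0.05 reads, and the test on those recovered reads called the same number, 921 genes.

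Libraries were grouped by treatment label, and replicates were numbered in accession order. No library was a copy of another, with chi-square per degree of freedom of at least 19.5 within groups and 17.3 between groups. Of 52459 symbols, 26033 had no count, and filterByExpr, grouped by JQ1, kept 12815. A scarce gene can therefore pass this filter through the libraries of either side alone. Symbols were matched to GENCODE release M21 (GRCm38), 12610 of those tested, and coordinates are 1-based. Ribosomal RNA counts sum 358 genes, including Gm42418 and the ribosomal RNAs of the mitochondrion.

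The main fit was edgeR 4.0.16 (robust glmQLFit and glmQLFTest, R 4.3.3) with TMM factors and terms for antibody and JQ1, leaving 5 residual degrees of freedom, with a biological coefficient of variation of 0.326. P-values were adjusted by Benjamini-Hochberg over all tested genes and called at 0.05. Log2 fold changes use a prior count of 0.125. SE is an approximate standard error, the absolute log2 fold change divided by the square root of the test's F statistic. The fit was tested on simulated data. The simulated counts had the same dispersion for all genes and no antibody or ribosomal RNA effect, so they do not test those features. Genes named are those both called and fully separated with mean log2 CPM of at least 1, namely the 10 largest rises and falls and the 8 of each with the smallest p, 25 further genes, up to 4 members of each of 48 lists with the smallest p and 5 for the interaction. Ranking left out predicted genes, segments of antigen receptors, Xist and genes of the Y chromosome, and some of the genes that the rule takes are given by their list's counts or are not reported here. Ddx39b and the members listed without values beyond these were named after their values were seen. Members and lists were chosen with earlier results of these data known. Alternatives were other scaling, filters and tools (DESeq2 1.42.0, limma 3.58.1), terms for sex and ribosomal RNA, thinning to 2719816 counts and leaving out libraries.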

Additional observations from a re-analysis of the deposited data

Results flagged for a closer look

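In 10 of 206 sets of 4 libraries checked, the highest or lowest library lay apart from the other 3 by more than Dixon's 95% value. Chance flags about 1 in 20 such sets. Among libraries with JQ1, the total of anti-PD1-JQ1 replicate 1 was 2719816 counts, against 8977259 to 9789137 in the other 3. Jun had 26.5 CPM in anti-PD1-JQ1 replicate 2, against 17.2 to 18.2 CPM in the others. Cdk6 had 15.5 CPM in anti-PD1-JQ1 replicate 1, against 27.3 to 30.6 CPM. Cldn5 had 2.37 CPM in JQ1 replicate 2, against 5.15 to 5.46 CPM. In JQ1 replicate 1, Cdkn1c had 14.9 CPM, against 8.27 to 9.13 CPM. Among libraries without JQ1, Actb had 18210 CPM in anti-PD1 replicate 1, against 23040 to 23620 CPM. In anti-PD1 replicate 2, Cdh1 had 88.3 CPM, against 116.1 to 116.8 CPM, Jun had 45.0 CPM, against 33.8 to 35.4 CPM, Bcl2 had 2.41 CPM, against 4.77 to 5.15 CPM, and Prdx6 had 149.8 CPM, against 100.8 to 104.8 CPM.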

How the results depend on the processing

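The main count of 921 calls, 846 of them fully separated and 123 in gene lists, kept within 1.5 times under RLE and upper-quartile factors, a mean count of at least 50, limma voom, limma trend, a mean per treatment, a sex term and removal of ribosomal RNA genes. Without a filter on low counts it was 2148 calls, 1315 of them separated and 265 in lists, and with DESeq2 it was 2268, 1682 and 263. With a term for ribosomal RNA share all 3 counts were 0. Among libraries with the antibody they were 57, 57 and 20, and among those without it all 3 were 1. Without both anti-PD1-JQ1 libraries they were 1, 1 and 0, and with scaling by chromosome 1438, 1290 and 174, both added after seeing the data. Calls in lists were 81 with no antibody term. Leaving out 1 library gave 0 to 716 calls, 0 to 692 of them separated and 0 to 118 in lists. Fully separated genes numbered 1724 of 9542 tested after thinning, 3093 to 3783 with 1 library left out, 4743 without both anti-PD1-JQ1 libraries, and 7152 within the libraries with the antibody and 6684 within those without it, where fewer libraries have to separate. The interaction had 22 calls by DESeq2 and 0 to 1 with 1 library left out. The difference in ribosomal RNA share was 12.9 to 21.2 percentage points with 1 library left out, against 16.99 with all, and the exact permutation p, 0.0286 with all, was then 0.0571, the smallest that 3 against 4 libraries allow. Of the 921 called genes, those still tested kept their direction in every alternative run except the term for ribosomal RNA share, where 913 did. The causes of these changes, beyond fewer samples or genes, were not tested. No paired analysis was possible because the labels carry no replicate numbers. The depth of anti-PD1-JQ1 replicate 1, the smallest library, limits genes of low level, and 238 tested genes had no count in it.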

Other observations

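Small nucleolar RNAs, which guide chemical modification of ribosomal RNA, were among the calls although the capture probes target coding regions. Of those tested, 8 were called higher with JQ1, none lower, and 21 were not called. Over all tested genes 4.09% were called higher and 3.1% lower. Among other noncoding classes, long intergenic RNAs had 7 called higher, 1 lower and 77 not called. Antisense RNAs had 5 higher, 2 lower and 72 not called, and processed pseudogenes 1 higher, 7 lower and 207 not called. Genes both called and fully separated had a median exonic length of 4110 bases when higher with JQ1 and 4946 bases when lower, against 4513 bases over all tested genes. Their median GC content was 49.6% when higher and 49.9% when lower, against 49.5% over all tested genes. Annotation was found for 98.1% of the higher and 99.2% of the lower genes.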
